A study of Mus musculus with 6 samples.

Results

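The 10 genes described here go under the name of the MYC, MAX and MXD network: the MYC paralogs Myc, Mycn and Mycl, their partner Max, the antagonists Mxd1, Mxd3, Mxd4, Mxi1 and Mnt, and Odc1, a classical target gene of MYC. They were chosen by gene name as members of a known network, with the prolactin-over-control values of these same libraries already seen, so their changes in that contrast are given as a description and support nothing by themselves. All 10 were found among the 48397 gene names counted, and all 10 were among the 23924 genes abundant enough to be tested. RNA came from pancreatic islets of wild-type C57B6 mice, a mixture of endocrine and other cells. After a night of recovery, the islets were kept for 24 h with recombinant mouse prolactin at 500 ng/mL (3 libraries) or with DMSO as the control (3 libraries). The labels do not tie the replicates to separate animals or cultures. The p-values therefore reflect the spread among these libraries, which may be technical.

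MYC proteins bind DNA as dimers with MAX and switch on genes for growth, ribosome assembly and metabolism. MXD proteins, MXI1 and MNT compete for the same partner, and their dimers with MAX bring histone deacetylases to the same DNA letters, the E-box CACGTG. In beta cells MYC is normally kept low, forced expression of it is known to drive both division and death, and prolactin is known to promote beta-cell growth in pregnancy.

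The E-box was looked for in promoter windows from 250 bases before to 50 bases after each annotated start (RefSeq, GRCm38.p6, the assembly also called mm10), since it is the sequence that every dimer of the network reads. Windows were at hand for 9 of the 10 genes, all but Myc, and 3 of these 9 held a CACGTG, which reads the same on both strands. The 3 stretches are shown 5′ to 3′ along the gene, with the E-box in capitals and 30 bases on each side. That of Max lies on the minus strand at chr12:76962216-76962281, that of Mxd4 on the minus strand at chr5:34187894-34187959 and that of Mnt on the plus strand at chr11:74830771-74830836.
Max: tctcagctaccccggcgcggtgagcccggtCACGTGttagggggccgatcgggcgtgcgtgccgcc
Mxd4: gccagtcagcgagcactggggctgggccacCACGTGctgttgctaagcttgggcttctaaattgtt
Mnt: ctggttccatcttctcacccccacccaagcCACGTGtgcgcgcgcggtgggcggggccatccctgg
The E-box began 3 bases before the annotated start in Max, 219 bases before it in Mxd4 and 123 bases before it in Mnt. Among all 32851 windows in the table, 7.15% held the motif, and among its 27025 genes 8.09% held it in at least 1 window. Max, Mxd4 and Mnt are also the 3 DNA-binding members with the highest levels per length. A relation of the motif to level was not tested. Among genes around the network, the motif stood in the windows of 7 of 25 nucleolar target genes with a window (28.0%), 10 of 32 metabolic target genes (31.2%), 3 of 10 genes listed as repressed by MYC, 3 of 16 polyamine genes and 2 of 4 genes of the MLX and MGA arm. It stood in 1 of 15 cofactor genes, 1 of 11 corepressor genes and 1 of 14 genes of MYC protein turnover. A match is a run of letters, not a measured binding site.

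The libraries held between 230833584 and 530296257 assigned reads, with control replicate 1 the deepest. Levels are given as CPM, the read count scaled to library size, here after TMM scaling, and where genes are compared with each other as RPKM, the CPM divided by the summed exon length in kilobases. The islet label matched its markers: the 10 beta-cell markers summed to between 119093 and 124568 CPM in prolactin and between 117066 and 143551 CPM in control. Digestive-enzyme markers of acinar cells were also present and uneven, from 987 to 2225 CPM in prolactin and from 598 to 3277 CPM in control. Prolactin replicates 2 and 3 lay closer together than any other pair, with an SD of their log2 ratios of 0.0546 among genes of at least 5 CPM, against 0.158 to 0.235 in the other pairs of a condition. Their counts still differed by more than sampling noise, and they are counted as 2 libraries.

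Per length, the network was dominated by Odc1 and, among the DNA-binding members, by Max and the antagonists Mxd4 and Mnt, all above the MYC paralogs. Averaged over the 6 libraries, Odc1 stood at 121.5 RPKM, Max at 35.4, Mxd4 at 15.1, Mnt at 12.2, Myc at 6.85, Mxd1 at 3.33, Mxi1 at 3.20, Mycn at 0.585, Mxd3 at 0.466 and Mycl at 0.178 RPKM. Max was 2.35-fold above Mxd4, the next in order per length. By CPM Mxd4 was higher, with means of 130.7 in prolactin and 125.2 in control, against 70.4 and 71.5 for Max. The order of these genes thus depends on the summed exon lengths, 8483 bases for Mxd4 and 2005 for Max. Neighbouring genes in this order did not overlap between libraries except in 2 places: Mxd1 and Mxi1 overlapped, and so did Mycn and Mxd3, which overlapped in control but not in prolactin. Myc lay below Mnt and above Mxd1 in all 6 libraries.

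**Figure D1:**
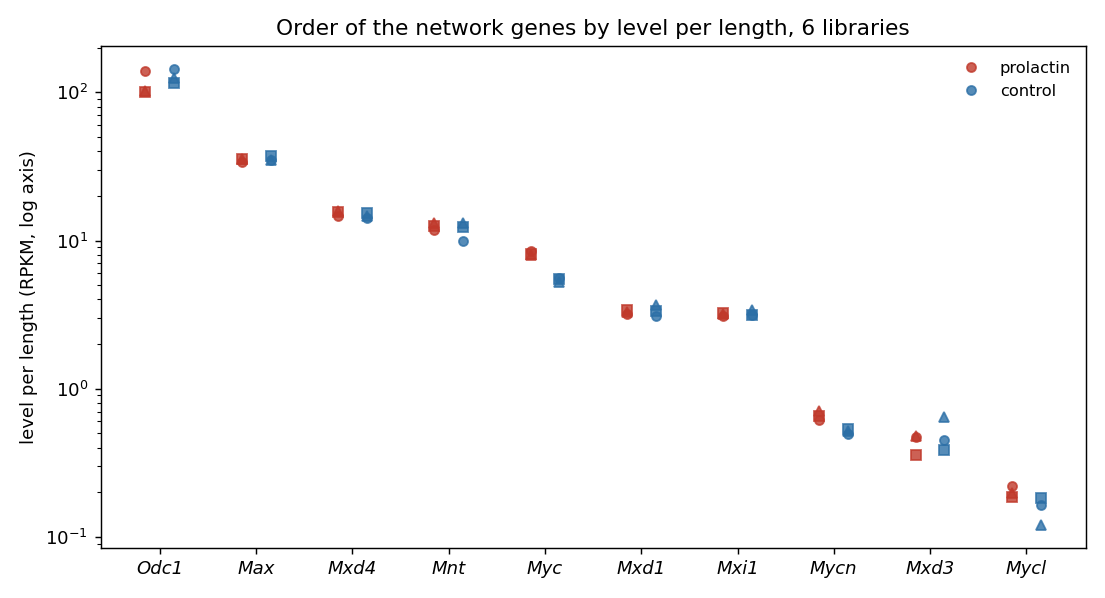
Level per length of the 10 genes in RPKM on a log axis, ordered by the mean of the 6 libraries. Each point is 1 library, prolactin in red on the left and control in blue on the right of each gene. Odc1 at 121.5 RPKM leads and Mycl at 0.178 RPKM is last, and Myc shows the clearest gap between red and blue points.

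Of the 10 genes, 1 rose with prolactin and 0 fell by edgeR's quasi-likelihood test, with a threshold of 0.05 on the adjusted p (2 higher and 0 lower with an unadjusted p below 0.05, and 1 higher and 0 lower with DESeq2 and with limma-voom). Over all genes tested, 0.652% were called higher and 0.104% lower. Because the members were chosen with this contrast known, nothing is read from that comparison. The gene that rose was Myc itself.

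Myc (chromosome 15, 61985341 to 61990374, mm10, plus strand) encodes the founding member of the family. It stood at 23.5, 22.5 and 22.3 CPM in prolactin replicates 1, 2 and 3, against 15.5, 15.3 and 14.6 CPM in control replicates 1, 2 and 3. The lowest prolactin library lay well above the highest control library, and the libraries of a condition differed little. The means were 22.8 ± 0.7 CPM in prolactin and 15.1 ± 0.5 CPM in control (SD, n = 3 each). The log2 change was 0.59 (SE 0.056), a 1.504-fold level (edgeR adjusted p = 0.0023). The change kept its direction and passed in all 17 alternative fits, with log2 changes from 0.56 to 0.61 and an adjusted p of at most 0.0268, that without prolactin replicate 2. In the authors' deposited table, made with DESeq2, the log2 change of Myc was 0.59 (SE 0.072, adjusted p = 1.2e-13).

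Mycn (chromosome 12, 12936096 to 12941914, minus strand), the paralog best known from the developing nervous system, had 2.03, 2.15 and 2.31 CPM in prolactin, against 1.62, 1.74 and 1.70 CPM in control. All 3 prolactin libraries lay above all 3 control libraries, as for Myc. The log2 change was 0.36 (SE 0.11), which did not pass (edgeR adjusted p = 0.1865). It passed in none of the 17 alternative fits, and was closest with DESeq2 (adjusted p = 0.0501), which is also the value in the authors' deposited table.

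Mycl (chromosome 4, 122995652 to 123002485, plus strand), the third paralog, was the scarcest member, with 0.893, 0.744 and 0.797 CPM in prolactin, against 0.661, 0.732 and 0.486 CPM in control. The groups did not overlap, but prolactin replicate 2 and control replicate 2 nearly touched. Its log2 change of 0.37 (SE 0.18) did not pass (adjusted p = 0.40), and rests on between 130 and 355 reads a library. The prolactin libraries thus lay above the control libraries for all 3 MYC paralogs and for none of the other 7 members, and below them for 0 of 10. Among all genes tested, the conditions did not overlap with prolactin above in 11.3% and with prolactin below in 10.4%. The difference in change between Myc and the other paralogs was not tested.

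**Figure D2:**
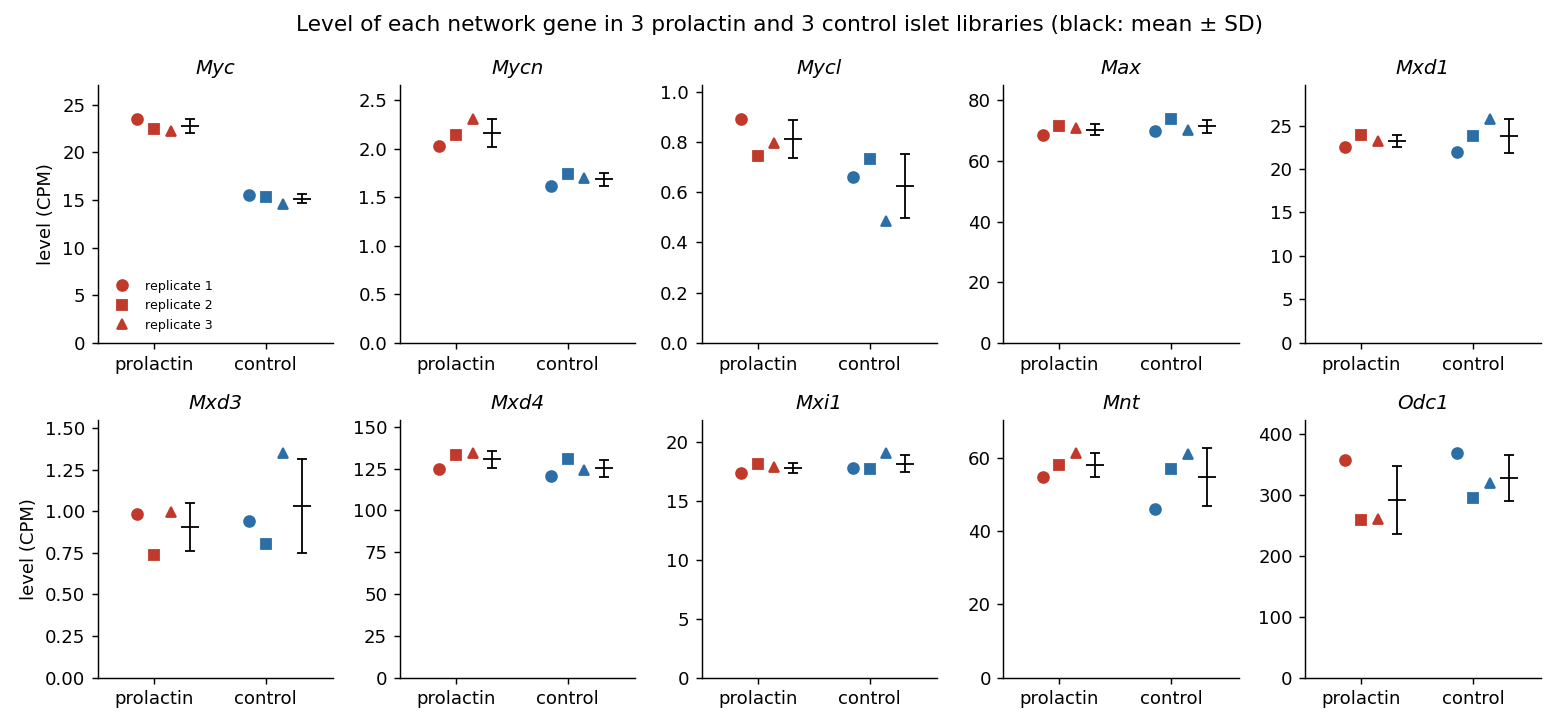
Level of each of the 10 genes in CPM, with an axis from 0 in every panel. Points are libraries, prolactin in red on the left and control in blue on the right, the symbol gives the replicate number, and the black mark is the mean ± SD of 3 libraries. The 2 colours separate for Myc, Mycn and Mycl and mix for the other 7.

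Max (chromosome 12, 76937269 to 76962248, minus strand) encodes the shared partner of the MYC proteins and their antagonists. It had 68.5, 71.7 and 71.1 CPM in prolactin, against 70.0, 74.0 and 70.4 CPM in control. The 2 ranges overlapped, with 2 of the 3 prolactin libraries inside the control range. The log2 change was -0.02 (SE 0.050, adjusted p = 0.884), the smallest SE of the 10.

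Among the antagonists, none passed. Mxd4 (chromosome 5, 34173883 to 34187720, minus strand), the most abundant of them, had 124.8, 133.0 and 134.2 CPM in prolactin, against 120.6, 130.9 and 124.0 CPM in control. These overlapped, with a log2 change of 0.06 (SE 0.057, adjusted p = 0.675). Mnt (chromosome 11, 74830920 to 74845725, plus strand), the antagonist found in most cell types, had 54.7, 58.0 and 61.2 CPM in prolactin, against 46.0, 57.0 and 61.1 CPM in control. Control replicate 1 alone was low, and the log2 change of 0.08 (SE 0.098, adjusted p = 0.751) became -0.03 without it.

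Mxd1 (chromosome 6, 86647042 to 86669161, minus strand), which is known to be induced as cells differentiate, had 22.5, 23.9 and 23.2 CPM in prolactin, against 21.9, 23.8 and 25.8 CPM in control. The prolactin libraries lay inside the range of the control libraries (log2 change -0.04, SE 0.068, adjusted p = 0.842). Mxi1 (chromosome 19, 53310506 to 53375810, plus strand), another MXD relative, had 17.3, 18.1 and 17.8 CPM in prolactin, against 17.8, 17.7 and 19.0 CPM in control. These ranges overlapped too (log2 change -0.03, SE 0.058, adjusted p = 0.850). Mxd3 (chromosome 13, 55325168 to 55329758, minus strand), the member linked to dividing cells, had 0.984, 0.740 and 0.993 CPM in prolactin, against 0.942, 0.806 and 1.35 CPM in control. Control replicate 3 was the highest, and the log2 change of -0.19 (SE 0.21, adjusted p = 0.746) turned to 0.05 without it. That library also had the highest level of proliferation markers, 216 CPM summed over 16 genes, against 160 to 179 CPM in prolactin and 180 to 185 CPM in the other control libraries, and the part of this in the value of Mxd3 was not tested. Exons of Mxd3 share 104 bases with Prelid1 on the opposite strand, which stood at 89.6 CPM, and counting without strand cannot part reads that fall there. Mxd4 and Mxi1 likewise share 514 and 194 exon bases with the opposite-strand loci Gm42846 and Gm10197.

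**Figure D3:**
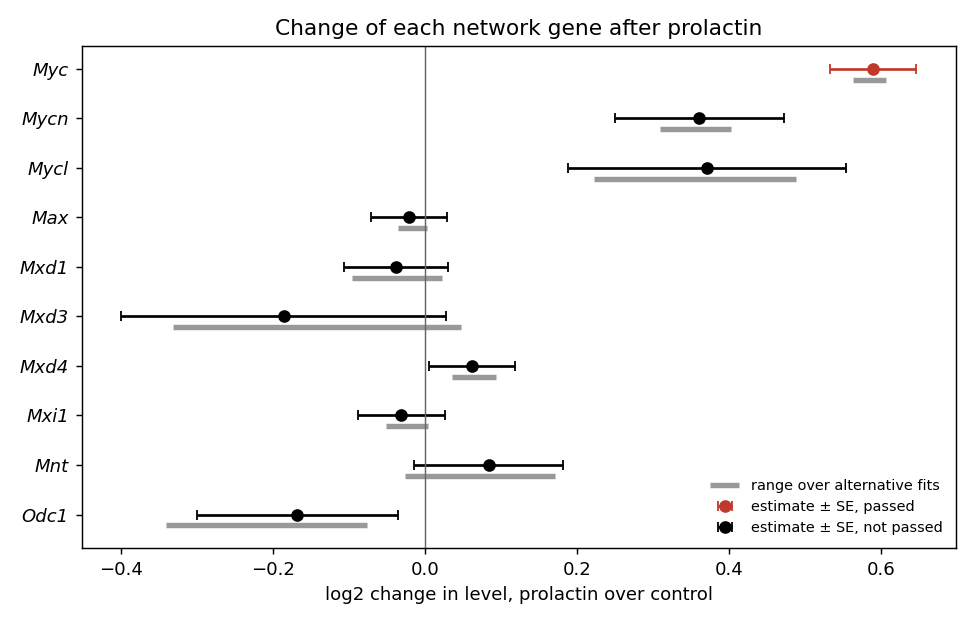
Log2 change in level, prolactin over control, for the 10 genes from top to bottom by role. Points with bars are the edgeR estimate ± SE, red where it passed an adjusted p of 0.05 and black where it did not, and the grey line below each is the range over the alternative fits. Myc at 0.59 stands clear of 0, while the antagonists and Max lie within 0.19 of it.

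The levels of both sides can be set against each other within a library, as sums of RPKM. Myc made up 90.5% ± 0.6 of the summed RPKM of the 3 MYC paralogs in prolactin and 89.1% ± 0.5 in control (SD, n = 3 each). For every 100 RPKM of Max there were 24.9, 22.7 and 22.7 RPKM of Myc in the prolactin libraries, against at most 16.0 RPKM in the control libraries (means 23.4 ± 1.3 RPKM in prolactin and 15.3 ± 0.6 RPKM in control, SD, n = 3 each). For every 100 RPKM of Mxd1, Mxd3, Mxd4, Mxi1 and Mnt together there were 28.1, 25.5 and 24.9 RPKM of the 3 MYC paralogs in prolactin, against 20.2, 18.0 and 16.6 RPKM in control. In both conditions transcripts of the antagonists outnumbered those of the MYC paralogs per length. The summed antagonists had 34.8 ± 1.4 RPKM in prolactin and 33.7 ± 2.5 RPKM in control (SD, n = 3 each), and the summed MYC paralogs had 9.08 ± 0.23 RPKM in prolactin and 6.13 ± 0.20 RPKM in control. These are transcript ratios, with no test, and say nothing of protein.

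**Figure D4:**
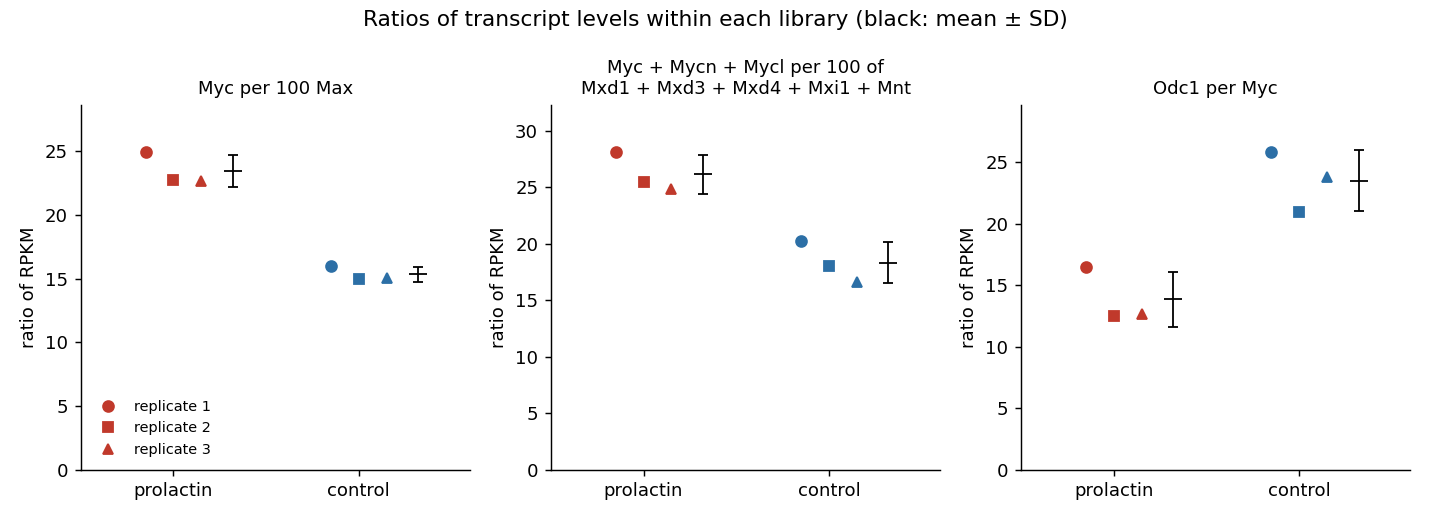
Ratios of RPKM within each library, with axes from 0, prolactin in red on the left and control in blue on the right, symbols by replicate number and the mean ± SD of 3 libraries in black. Myc per 100 Max lies between 22.7 and 24.9 in prolactin and at 16.0 or below in control, and Odc1 per Myc is lower in every prolactin library.

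Odc1 (chromosome 12, 17544873 to 17551502, plus strand) encodes ornithine decarboxylase, the rate-limiting enzyme of polyamine synthesis and a textbook target of MYC. It had 356.6, 258.0 and 260.0 CPM in prolactin, against 367.9, 295.3 and 319.4 CPM in control. Replicate 1 was the highest of each condition, and the groups overlapped. The log2 change was -0.17 (SE 0.13, edgeR adjusted p = 0.616). It was negative in all 17 alternative fits, from -0.34 without prolactin replicate 1 to -0.08 without control replicate 1, and passed in none. With 0.5 added to each CPM, the SD of its log2 CPM was 0.266 over the prolactin libraries and 0.161 over the control libraries. The median gene of at least 5 CPM had 0.0456 in prolactin and 0.0947 in control. No other member had as large an SD in prolactin, while in control Mnt (0.211), Mxd3 (0.258) and Mycl (0.167) had larger ones. The added 0.5 lowers the SDs of scarce genes such as Mxd3 and Mycl most, so their order is not read. Acinar markers were higher in prolactin replicate 1, at 2225 CPM, than in prolactin replicates 2 and 3, at 987 and 1034 CPM, but highest of all in control replicate 3, at 3277 CPM, and their part in the level of Odc1 was not tested. There were 16.5, 12.5 and 12.7 RPKM of Odc1 per RPKM of Myc in prolactin, against 25.8, 20.9 and 23.8 RPKM in control.

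In the rest of the polyamine pathway, no gene passed. Of 22 genes tested, Odc1 included, 0 rose and 0 fell by edgeR (with an unadjusted p below 0.05, 3 higher and 3 lower; DESeq2 called 1 higher and limma-voom 0), and the median log2 change was -0.02, where that of all genes was 0.00. Spermidine synthase, Srm, another textbook MYC target, came closest, with 81.8, 75.5 and 76.8 CPM in prolactin, against 66.2, 65.8 and 67.1 CPM in control (log2 change 0.23, SE 0.051, edgeR adjusted p = 0.0826). Its groups did not overlap, and it is the gene that DESeq2 called. Eif5a, whose protein carries the spermidine-derived residue hypusine, had 431.0 ± 14.6 CPM in prolactin and 383.7 ± 14.5 CPM in control (log2 change 0.17, adjusted p = 0.253). Azin1, which shields ornithine decarboxylase from its antizyme, had -0.14 (adjusted p = 0.277), and Amd1, which supplies the aminopropyl donor, had -0.16 (adjusted p = 0.313). The antizyme genes Oaz1 and Oaz2 had log2 changes of 0.00 and -0.08, and Sat1, the first enzyme of polyamine breakdown, had 0.03. Changes in this list ran from -0.18 to 0.52.

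Partners outside the 10 genes did not pass either. Of the 4 genes of the MLX and MGA arm, 0 passed by edgeR (0 had an unadjusted p below 0.05, and DESeq2 and limma-voom called 0). Mga, a large repressor that also dimerizes with MAX, had 138 ± 2 CPM in prolactin and 135 ± 1 CPM in control (log2 change 0.03, adjusted p = 0.815). Mlx, the partner of the glucose-responsive factors, had a log2 change of -0.07, and its partner Mlxip had 0.01. Mlxipl, the carbohydrate-responsive factor ChREBP, had 87.7, 123.6 and 121.9 CPM in prolactin, against 79.7, 101.7 and 132.0 CPM in control. Its replicates differed more than its conditions did (log2 change 0.09, SE 0.18, adjusted p = 0.865).

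Among 16 cofactors that MYC is known to recruit, 0 passed by edgeR (0 had an unadjusted p below 0.05, and DESeq2 and limma-voom called 0). Of the 16 changes 12 were positive, where 50.1% of all genes were, and the median log2 change was 0.06. On the log2 scale the acetyltransferase gene Crebbp had 0.16 (adjusted p = 0.411), and Kat5, another acetyltransferase gene, had 0.07 (adjusted p = 0.581). Hcfc1, the most abundant cofactor per length, had 22.4 ± 0.9 RPKM in prolactin and 20.8 ± 2.1 RPKM in control. Among 12 genes of the SIN3 deacetylase complex, through which MXD proteins and MNT repress, 0 passed (0 had an unadjusted p below 0.05, and DESeq2 and limma-voom called 0) and the median was 0.00. The scaffold gene Sin3a had a log2 change of 0.04, the deacetylase gene Hdac2 -0.08, and Rbbp7, the most abundant of them per length, 87.7 ± 0.7 RPKM in prolactin and 86.5 ± 5.0 RPKM in control.

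Of 18 genes whose products set the stability of MYC protein, 0 passed by edgeR (0 had an unadjusted p below 0.05, and DESeq2 and limma-voom called 0), with a median log2 change of 0.02. Fbxw7, the ubiquitin ligase subunit that marks phosphorylated MYC, had 65.7 ± 1.9 CPM in prolactin and 63.2 ± 2.9 CPM in control (log2 change 0.06, adjusted p = 0.693). The deubiquitinase gene Usp36 had 0.14 on the log2 scale (adjusted p = 0.358), and was called without control replicate 3. The kinase gene Aurka had 0.17 (adjusted p = 0.369) and the ligase gene Trim32 -0.12 (adjusted p = 0.375). Changes in this list ran from -0.35 to 0.17. MYC protein itself was not measured.

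Textbook target genes of MYC did not pass either. Of 30 genes of the nucleolus and ribosome assembly, 0 rose and 0 fell by edgeR (with an unadjusted p below 0.05, 5 higher and 1 lower; DESeq2 and limma-voom called 0). The median log2 change was 0.06, 23 of 30 changes were positive, where 50.1% of all genes were, and the prolactin libraries lay above the control libraries for 13 of 30 and below for 1, against the 11.3% and 10.4% of all genes. Mybbp1a, a nucleolar regulator of ribosomal RNA synthesis, had 173.0, 163.7 and 166.6 CPM in prolactin, against 142.4, 148.4 and 153.7 CPM in control. Its groups did not overlap, and its log2 change was 0.18 (SE 0.055, edgeR adjusted p = 0.183). The nucleolar GTPase gene Gnl3 had 0.17 (adjusted p = 0.203) and the ribosome assembly gene Grwd1 0.19 (adjusted p = 0.221). In the opposite direction, Imp4, of the small-subunit processome, had -0.15 (adjusted p = 0.221). The genes of the major nucleolar proteins, Ncl and Npm1, had -0.10 and 0.01. Changes in this list ran from -0.53 to 0.19.

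Of 36 target genes of metabolism, translation and the cell cycle, 0 rose and 0 fell by edgeR (with an unadjusted p below 0.05, 3 higher and 3 lower; DESeq2 called 1 each way and limma-voom 0). The median log2 change was 0.03, and -0.04 without control replicate 3. Shmt2, a mitochondrial enzyme of one-carbon supply, had 66.0 ± 3.7 CPM in prolactin and 55.6 ± 4.4 CPM in control (log2 change 0.25, SE 0.070, edgeR adjusted p = 0.161). Pkm, the pyruvate kinase of glycolysis, had 1186 ± 6 CPM in prolactin and 1403 ± 88 CPM in control (log2 change -0.24, SE 0.070, adjusted p = 0.165). The purine synthesis gene Ppat had -0.18 (adjusted p = 0.193) and the glycolytic enzyme gene Eno1 -0.26 (adjusted p = 0.318). The prolactin libraries lay above the control libraries for 3 of the 36 genes, Shmt2 among them, and below for 3 (Pkm, Ppat and Eno1), against the 11.3% and 10.4% of all genes. Cad, the pyrimidine synthesis gene long used as a MYC target, had 201.2, 208.6 and 220.3 CPM in prolactin, against 141.8, 172.7 and 209.9 CPM in control, which overlapped (log2 change 0.27, SE 0.12, adjusted p = 0.367). Among cell-cycle targets, the log2 change was 0.05 for Cdk4 and 0.06 for Ccnd2.

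Of 12 genes listed as repressed by MYC, 1 rose and 0 fell by edgeR, against 0.652% and 0.104% of all genes tested. With an unadjusted p below 0.05, 3 were higher and 0 lower, and DESeq2 and limma-voom each called 1 higher. Of the 12 changes 10 were positive, where 50.1% of all genes were, with a median of 0.14 on the log2 scale. The prolactin libraries lay above the control libraries for 4 of 12 and below for 0, against the 11.3% and 10.4% of all genes. The list was put together from general knowledge, with earlier results of these data known. The evidence for repression differs among its members, Cited2 in particular, so nothing about MYC is read from these counts. The gene that rose was Cited2, a coactivator-binding protein that restrains hypoxia signalling, with 44.4, 44.8 and 46.5 CPM in prolactin, against 28.8, 29.7 and 28.0 CPM in control (log2 change 0.65, SE 0.050, edgeR adjusted p = 0.00063). Its groups lay far apart, and it passed in every fit that left out 1 library. Gadd45a, a stress-response gene, had 0.14 on the log2 scale (adjusted p = 0.275), and Gas1, named for growth arrest, had 0.57 at under 1.2 CPM (adjusted p = 0.291). The cell-cycle inhibitor Cdkn1a, the best known repressed target, had 67.1 ± 7.0 CPM in prolactin and 60.7 ± 6.9 CPM in control (log2 change 0.14, adjusted p = 0.548), and Cdkn2b had 0.15 (adjusted p = 0.401).

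**Figure D5:**
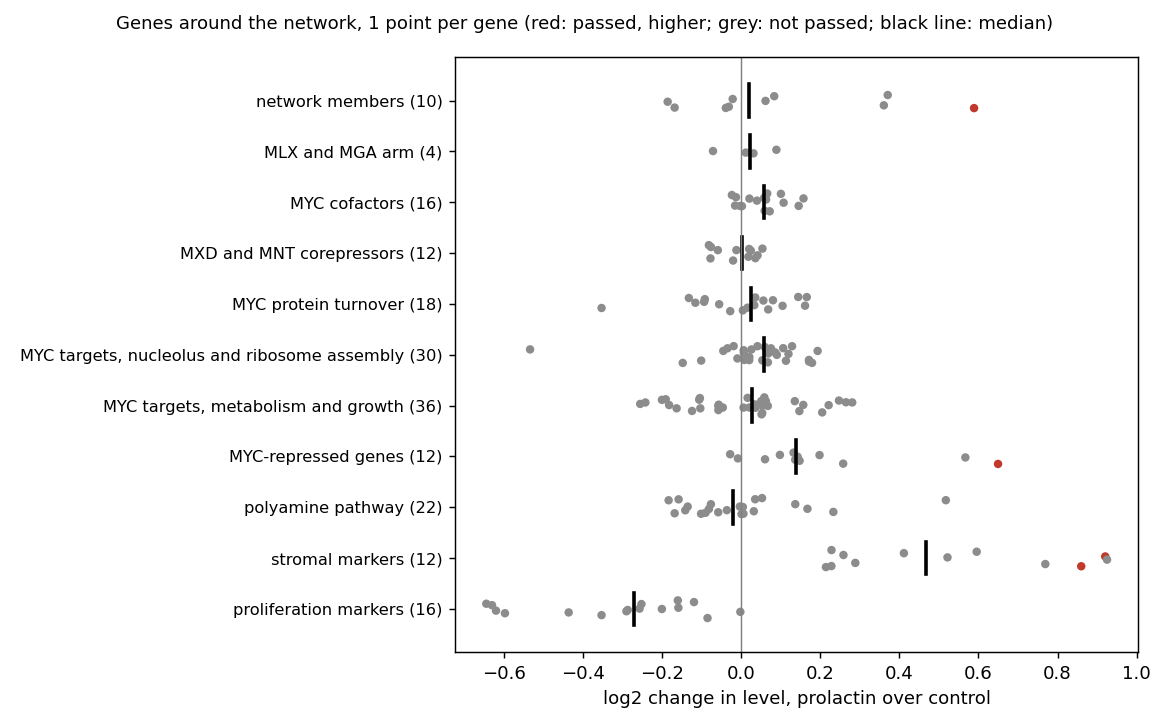
Log2 change in level, prolactin over control, of the genes around the network, with 1 point per gene, the number tested in brackets and a black line at the median of each list. Red points passed an adjusted p of 0.05 and grey points did not. Of the cell type markers, the stromal and proliferation lists are drawn. The red points are Myc, Cited2, Col1a1 and Col1a2, and the target lists centre near 0, with medians of 0.06 and 0.03.

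Some markers of other cell types passed as well. In bulk samples, fewer cells of a type and less RNA per cell cannot be told apart. The 12 stromal markers, which include the collagen genes Col1a1 and Col1a2, summed to between 749 and 925 CPM in prolactin and between 372 and 555 CPM in control. The changes of all 12 were positive, where 50.1% of all genes were. By edgeR Col1a1 (0.86) and Col1a2 (0.92) passed, against 0.652% of all genes called higher. DESeq2 called 4 of the 12 higher, and over all genes it called 776 higher and 303 lower. The median log2 change of the list was 0.47, and 0.21 to 0.65 over the fits without 1 library, lowest without control replicate 3. Without that library the log2 change of Myc was 0.56 (edgeR adjusted p = 0.0054). Myc was at 14.6 CPM in it and at 15.3 and 15.5 CPM in the other control libraries. Both Myc and the stromal sum were lowest in control replicate 3, at 14.6 and 372 CPM. Both were highest in prolactin replicate 1, at 23.5 and 925 CPM. From prolactin replicate 2 to 3 they went opposite ways, Myc from 22.5 to 22.3 CPM and the stromal sum from 749 to 756 CPM. The summed nucleolar targets (1944 and 2178 CPM) and MYC-repressed genes (338 and 382 CPM) also had their lowest and highest values in control replicate 3 and prolactin replicate 1. Of 8 alpha-cell markers, 6 changes were positive. By edgeR 1 passed as higher, against the 0.652% of all genes, and DESeq2 called 3 higher. Their median was 0.25, and 0.09 to 0.47 over the fits without 1 library (lowest without control replicate 3, highest without control replicate 1). Of 10 endothelial markers, 10 changes were positive, Vwf rose by edgeR and DESeq2 called 2 higher. Their median was 0.16, and 0.11 to 0.23 without 1 library. Of 7 duct markers, 7 changes were positive, 0 passed by edgeR and DESeq2 called 1 higher. Their median was 0.22, and 0.12 to 0.34 without 1 library, lowest without prolactin replicate 1. The medians of 4 lists changed sign when 1 library was left out. The beta-cell markers had -0.06, and 0.01 without control replicate 2. The delta-cell and PP-cell markers, of which the hormone gene Sst fell, had -0.02, and 0.02 without control replicate 3. Of 14 acinar markers, 14 had negative changes. Their median was -0.42, and 0.30 without control replicate 3. The leukocyte markers had 0.01, and -0.05 to 0.06 without 1 library. The parts of these cells in the change of Myc were not tested. No marker of any of these lists was at 0 in a library.

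Markers of dividing cells did not pass. Of 16 proliferation markers, 0 passed by edgeR. With an unadjusted p below 0.05, 0 were higher and 5 lower, DESeq2 called 2 lower and limma-voom 0. Of the changes, 16 of 16 were negative, where 50.1% of all genes had positive changes. The prolactin libraries lay below the control libraries for 5 of 16 and above for 0, against the 10.4% and 11.3% of all genes. Mki67 had 9.59, 8.34 and 9.01 CPM in prolactin, against 11.4, 10.6 and 19.4 CPM in control, with control replicate 3 far above the rest (log2 change -0.62, SE 0.20, adjusted p = 0.210). The median of the list was -0.27 with all libraries and -0.02 without control replicate 3.

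Genes whose levels ran most like those of Myc over the 6 libraries were Arfgap3, Hopx and Nrde2, with Pearson's r of 0.997, 0.996 and 0.996 in log2 CPM among 10922 named genes of at least 5 CPM. These points share their libraries and the step between conditions, and the log2 changes of the 3 genes were smaller than that of Myc, at 0.14, 0.31 and 0.17. For Odc1 the 3 genes were Zfp948, Cast and Tinf2, with r of 0.993, 0.990 and 0.985 and log2 changes of -0.05, -0.09 and -0.06. Their levels too were highest in replicate 1 of each condition. Pvt1, the non-coding neighbour downstream of Myc, chosen after its values were seen, had 1.36, 1.21 and 1.23 CPM in prolactin, against 0.991, 0.931 and 0.732 CPM in control. Its groups did not overlap, and its log2 change of 0.51 (SE 0.15) did not pass (edgeR adjusted p = 0.175).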

How the data were processed

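Polyadenylated RNA of 6 islet libraries was sequenced on an Illumina instrument, per the labels' protocols. The deposited values are whole-number read counts per gene name, made with featureCounts 2.0.3 and GENCODE vM10 models, without a strand option, per the file headers. The build was mm10, per the submitters' processing notes. Those notes also name Subread 2.1.0, where the file headers name featureCounts 2.0.3. Which aligner was used, Subread or another, was not given in the sources used here. Of counts from 1 to 20, 53.9% to 56.3% were even, so both mates of a pair may be counted. No interval from counts alone is given for that reason. A second deposited table holds, per gene, a mean signal, a log2 fold change and its error, a test score and p-values, all made by the authors. DESeq2 run here on the counts gave those log2 fold changes within 0.000802.

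The counts were filtered by edgeR 4.0.16 (R 4.3.3; minimum count 10, minimum total 15), TMM-scaled and fitted with condition as the only term. The quasi-likelihood test (legacy setting) was two-sided, with Benjamini-Hochberg adjustment over 23924 genes. SEs come from the test statistic. For SDs and correlations of log2 CPM, 0.5 was added to each CPM. The procedure was tested on simulated data.

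The members and the 18 gene lists were chosen with earlier results of these data known. All 253 entries were found, 1 of them under an older name. The rule for named genes takes the members, list genes past the threshold, up to 4 genes with the smallest p of a list, the most abundant cofactor and corepressor, and the genes most like Myc and Odc1. Others were named after their values were seen. Some list genes that the rule takes are not reported here. Alternatives were other scalings, filters and tools (DESeq2 1.42.0, limma-voom 3.58.1), the replicate number as a term, fits without each library, fits without hormone and mitochondrial genes, halved counts, summed prolactin replicates 2 and 3 and edgeR's other legacy setting.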

Additional observations from a re-analysis of the deposited data

How the results depend on the processing

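The call of Myc, and the absence of a call for the other 9 members, held in every alternative fit that tested them, and 163 of 168 alternative log2 changes of members kept both direction and side of the threshold. The 5 that turned in sign were small and came from leaving out 1 control library. Over the fits without 1 library, log2 changes ran from -0.0357 to 0.00304 for Max (positive without control replicate 2), -0.0961 to 0.0220 for Mxd1, -0.332 to 0.0475 for Mxd3 and -0.0511 to 0.00353 for Mxi1 (the last 3 positive without control replicate 3), and -0.0268 to 0.170 for Mnt (negative without control replicate 1). Mycl and Mxd3 were not tested under the filter of 1 CPM in 3 libraries. The median log2 changes of the MLX and MGA arm, corepressor, turnover, metabolic target and polyamine lists, all near 0, changed sign without 1 or more libraries, and ran from -0.04 to 0.06.

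The count of all genes called moved far more than the members' values. It was 181 as reported, 597 with no filter, 1079 with DESeq2, 598 with the replicate block, 44 with prolactin replicates 2 and 3 summed, and 40 to 576 without 1 library (lowest without prolactin replicate 2, highest without control replicate 3, with 342 higher and 234 lower). The cause was not tested. Whether the replicate numbers pair the libraries was not settled. Deviations of same-numbered libraries correlated at 0.54, 0.33 and 0.09. Prolactin replicates 1 and 2 matched the control library of their own number best. Prolactin replicate 3 matched control replicate 2 (0.35) better than its own number. Under the replicate block the members' call count stayed at 1, with Myc at 0.59 (adjusted p = 0.0015). Among the lists other than markers, DESeq2 called 2 metabolic targets (Shmt2 and Pkm) and 1 polyamine gene (Srm), besides Myc and Cited2, which edgeR called too. The fits without 1 library gave 0 to 2 metabolic targets, 0 to 1 polyamine genes (Amd1 lower) and 0 to 1 turnover genes (Usp36), the higher count each time without control replicate 3. Mycl, the scarcest member, had 130 to 355 reads a library and an SE of 0.18, which was 0.18 with halved counts too, and the SE of Myc was 0.056.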
